A study of Mus musculus with 9 samples.

Results

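The nuclear-encoded subunits of the respiratory chain were examined in neuronal nuclei of mouse cortex, complex by complex. Members were genes whose symbols begin with Ndufa, Ndufb, Ndufc, Ndufs, Ndufv, Uqcr, Atp5 or Cox4 to Cox8, together with Sdha, Sdhb, Sdhc, Sdhd and Cyc1, without the assembly factors named Ndufaf and without pseudogenes. A summed count of at least 50 over the 9 libraries was required, which 78 of 91 such genes met, out of 55401 genes in the deposited tables. They comprised 35 genes of complex I, 4 of complex II, 9 of complex III, 12 of complex IV and 18 of complex V. The smallest total among them was 236 counts, for Ndufa1, and the largest total left out was 37 counts, for Ndufa11b. Ndufa4 was placed with complex IV, where its product is now assigned, despite its complex I name.

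The study asked how a peptide called Cdk5i, compared with a scrambled peptide, affects cortical neurons of mice that carry a P301S Tau transgene. P301S is a mutation of tau that causes an inherited dementia, and Cdk5 is a neuronal protein kinase that phosphorylates tau. NeuN+ nuclei were sorted from cortex of animals 7 to 9 months old, and their total RNA was sequenced. The 3 groups held 3 libraries each: wild-type animals without treatment, P301S Tau transgenic animals given the scrambled peptide, and P301S Tau transgenic animals given the Cdk5i peptide. Both peptides were given into the abdomen at 20 mg/kg every other day. Wild-type animals received no peptide, so genotype and injection cannot be told apart in either comparison with them. The promoter that drives the transgene and the number of animals behind each library are not given in the sources used here, and p-values then cover the spread of the libraries alone, part of which may be technical.

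The respiratory chain sits in the inner mitochondrial membrane and passes electrons from NADH and succinate to oxygen. Complex I (NADH dehydrogenase), complex III (cytochrome bc1) and complex IV (cytochrome c oxidase) pump protons as they do so, complex II (succinate dehydrogenase) feeds electrons in without pumping, and complex V (ATP synthase) uses the proton gradient to make ATP. A few core subunits are encoded by mitochondrial DNA, while all others, including every subunit of complex II, are transcribed in the nucleus and imported as proteins. Neurons depend heavily on this pathway for the ion pumping that follows synaptic activity. Because RNA came from nuclei and reads in introns were counted with those in exons, the values below describe nuclear transcripts, spliced or not, and not the messenger RNA at the ribosomes.

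Promoters of these genes are textbook targets of nuclear respiratory factor 1 (NRF1), of the ETS factor GABPA (nuclear respiratory factor 2) and of YY1. RefSeq promoter windows on GRCm38.p6, from 250 bases before to 50 bases after the transcript start, were found for 65 of the 78 genes and searched on both strands for exact matches, with each motif counted on its own even where matches overlap. The NRF1 motif (GCGCA, then any base, then GCGC) was present in 17 of the 65 (26.2%), against 5.19% of 27025 genes with such a window. The GABPA motif CCGGAAG was present in 16 of the 65 (24.6%), against 9.93% of genes, and the YY1 motif AAGATGGC in 10 of the 65 (15.4%), against 3.19%. At least 1 of the motifs occurred in 37 of the 65 genes (56.9%) and in 16.4% of all genes with a window. A gene with several windows was counted once, with a match in any of them. Some transcript starts lay inside the gene of the count tables, up to 3683 bases from its start for Atp5d. The genes compared were not limited to those tested in these nuclei. NRF1 matches were in 7 of 31 genes of complex I, 2 of 3 of complex II, 1 of 5 of complex III, 1 of 11 of complex IV and 6 of 15 of complex V. YY1 matches were in 7 genes of complex I, 3 of complex V and in none of the other complexes. A match is a stretch of letters and no evidence of binding.

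The following sequences are 150 bases each for 4 members that recur in the results, ending just before the RefSeq transcript start or the gene start of the count tables, whichever lies further upstream, with NRF1 matches in capitals, written 5′ to 3′ on the strand of the gene. They are Cox5b at chr1:36691299-36691448 on the plus strand, Ndufa11 at chr17:56717612-56717761 on the plus strand, Ndufb4 at chr16:37654454-37654603 on the minus strand and Sdha at chr13:74350281-74350430 on the minus strand. Cox5b, which had the lowest fold change of all members between the peptides, held none of the 3 motifs in its whole window. Sdha, the most strongly transcribed gene of complex II, held 3 NRF1 matches in its window, 2 of them in the stretch shown, and Ndufb4 held 3, with 1 shown.
Cox5b: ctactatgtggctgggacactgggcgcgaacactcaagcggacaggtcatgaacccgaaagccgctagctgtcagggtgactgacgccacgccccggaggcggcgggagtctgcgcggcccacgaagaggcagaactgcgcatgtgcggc
Ndufa11: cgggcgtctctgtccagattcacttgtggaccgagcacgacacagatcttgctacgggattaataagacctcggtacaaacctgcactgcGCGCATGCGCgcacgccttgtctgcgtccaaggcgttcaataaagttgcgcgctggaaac
Ndufb4: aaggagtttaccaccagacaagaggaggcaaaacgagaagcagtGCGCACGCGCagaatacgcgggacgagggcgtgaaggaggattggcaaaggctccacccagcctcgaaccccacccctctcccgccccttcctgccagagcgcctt
Sdha: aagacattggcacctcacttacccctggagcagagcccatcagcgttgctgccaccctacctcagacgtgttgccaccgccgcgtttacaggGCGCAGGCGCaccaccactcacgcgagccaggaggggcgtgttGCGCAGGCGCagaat

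Libraries held 21584712 to 26715938 counts, of which 22011 to 27013 fell on the members (0.0970 to 0.118% of a library). Summed levels of 4 neuronal markers (Rbfox3, Snap25, Syt1 and Map2) were 5656 to 6703 CPM (counts relative to library size after TMM scaling), with 242 to 389 CPM for 4 excitatory and 159 to 268 CPM for 3 inhibitory markers, while 4 microglial markers summed to 2.20 to 3.57 CPM, 4 astrocyte markers to 6.79 to 16.2 CPM, 3 oligodendrocyte precursor markers to 12.1 to 24.2 CPM and 3 endothelial markers to 0.964 to 2.29 CPM. The lowest excitatory sum, 242 CPM, was that of Cdk5i replicate 3, and the other libraries were at 323 to 389 CPM. All 4 excitatory markers had log2 fold changes below 0 in each comparison. The 3 inhibitory markers were above 0 in both comparisons with wild type, and 2 of them were between the peptides. Markers of oligodendrocytes summed to 66.3 to 76.8 CPM in wild type, 71.4 to 101.7 CPM under scrambled peptide and 69.0 to 115 CPM under Cdk5i. No marker of any of these cell types was at 0, and none of those tested passed in any comparison. Only 4 of 6 oligodendrocyte, 3 of 4 microglial and 2 of 3 endothelial markers were tested. The part of these cells in the results was not tested.

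Scrambled replicate 2 stood apart in the genes examined here. In that library 67 of the 78 members lay above their own mean over the 9 libraries, with a median deviation of 0.13 on the log2 CPM scale, whereas 25 to 44 members did so in each other library, with median deviations of -0.077 to 0.024. It also had the highest share of mitochondrially encoded RNA, 0.137% of counts against 0.0793 to 0.135% in the others, and the highest summed level of mitochondrially encoded subunits, 83.7 CPM against 55.9 to 75.5 CPM. The median deviation of complex III in it was 0.26, and those of the other complexes were 0.085 to 0.16. Medians of all members and of each complex in comparisons with the scrambled peptide are therefore given with and without this library. So are fold changes of single members that it moved by more than 1.5 times. Values of the gene lists beyond the members are given with it only. The part of mitochondrial RNA carried into the sort was not tested.

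**Figure D1:**
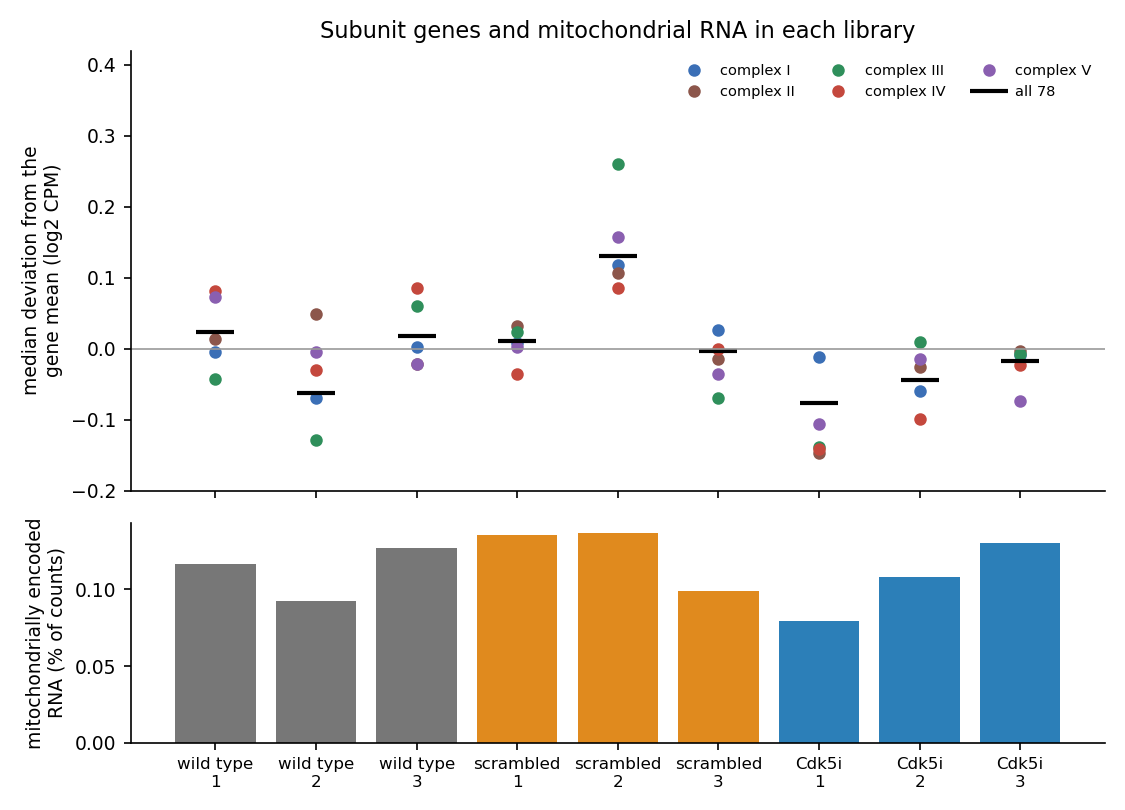
Upper panel: for each of the 9 libraries (x axis, 3 replicates in each group), the median over the genes of each complex of the deviation from the gene's mean over the 9 libraries, in log2 CPM; black bars are the median over all 78 genes. Lower panel: mitochondrially encoded RNA as percent of all counts, coloured by group. Scrambled replicate 2 has the highest value in both panels, 0.13 and 0.137%.

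Levels were uneven within every complex. Mean levels over the 9 libraries ran from 1.10 CPM for Ndufa1, a small membrane-arm subunit of complex I, to 91.9 CPM for Ndufs4, an accessory subunit of the same complex, with a median of 7.46 CPM. Since long introns collect more reads, levels are compared between genes only per kb of gene length. On that scale Atp5b and Atp5a1, which encode the catalytic beta and the alpha subunit of complex V, were highest at 4.31 and 3.91 CPM per kb. Ndufv1, which holds the NADH-binding site of complex I, followed at 3.31 CPM per kb, and Atp5c1, the gamma subunit that turns inside the ATP synthase head, at 2.61 CPM per kb.

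The order at the top was Atp5b, Atp5a1, Ndufv1 in each of the 3 groups. In wild type, Atp5b was at 4.41 ± 0.214 CPM per kb (SD, n = 3) and Atp5a1 at 4.16 ± 0.173, with ranges of 4.17 to 4.59 and 3.97 to 4.31 that overlap, while Ndufv1 at 3.21 ± 0.132 ranged from 3.10 to 3.36. Both Atp5b and Atp5a1 lay above Ndufv1 in every wild-type library. With the scrambled peptide the ranges of Atp5a1, 3.54 to 4.47, and of Ndufv1, 3.36 to 3.68, overlapped, as did those in the Cdk5i group, 3.31 to 3.77 and 3.03 to 3.37. Compared within each of the 9 libraries, however, Atp5b was above Atp5a1 and Atp5a1 above Ndufv1 on this scale. These differences between genes were not tested.

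Within complex I the highest levels after Ndufv1 were those of Ndufb10, a membrane-arm subunit, at 2.29 CPM per kb, and the lowest was Ndufa1 at 0.308. Sdha, the flavin-binding subunit that oxidises succinate, was at 2.27 CPM per kb, above its iron-sulfur partner Sdhb at 0.963 and the membrane anchor Sdhc at 0.541. In complex III the heme protein gene Cyc1 was at 2.44 and the core protein gene Uqcrc1 at 1.68, with the small subunit Uqcr10 lowest at 0.783. For complex IV, Cox7c and Cox5b led at 2.15 and 1.92 CPM per kb, and Cox7b2, a gene of 105382 bases, was lowest at 0.127. The lowest value of complex V, 0.0161, belonged to a second gene model named Atp5o that spans 242585 bases, beside the usual Atp5o model at 1.17 CPM per kb. The median level of a complex was 0.915 CPM per kb for complex I, 0.935 for II, 1.34 for III, 1.19 for IV and 1.57 for V.

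**Figure D2:**
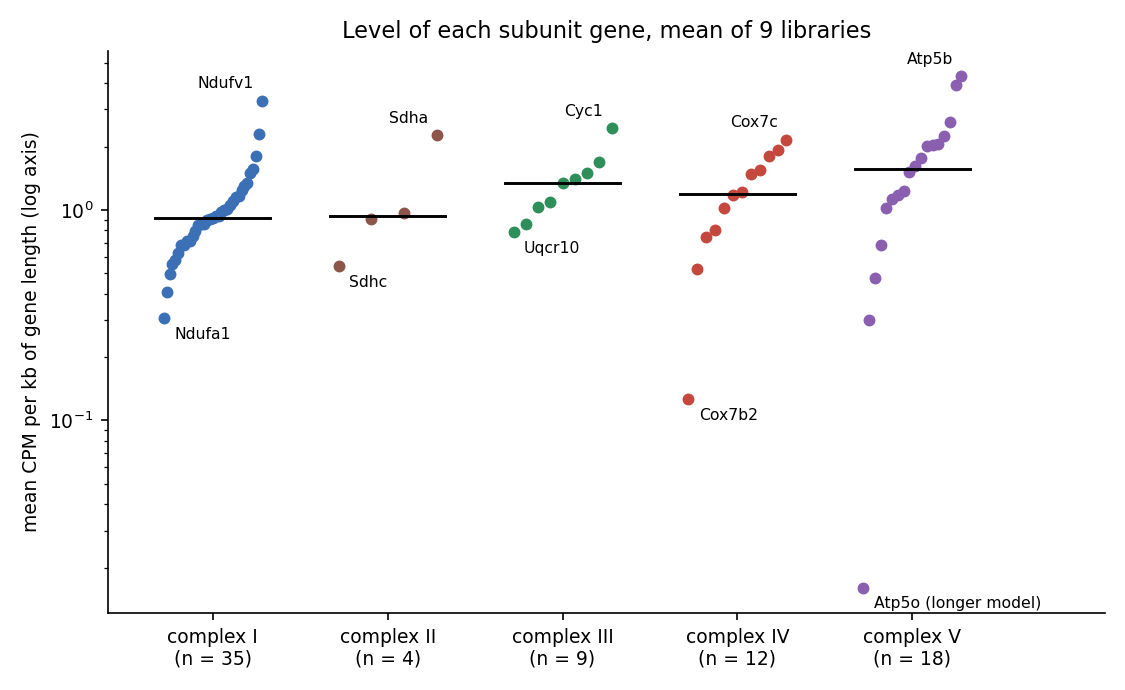
Each point is 1 subunit gene, placed by complex (x axis, number of genes below) and by its mean CPM per kb of gene length over 9 libraries (y axis, log scale); black bars are medians and the highest and lowest gene of each complex are named. Atp5b is highest at 4.31 and the longer Atp5o model lowest at 0.0161 CPM per kb.

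Where a subunit has isoforms, the forms known from heart and muscle were lower per kb than their liver-type partners. Over the 9 libraries together, Cox7a1 (28 counts) was at 0.0679 CPM per kb against 1.17 for Cox7a2, Cox6a2 (26 counts) at 0.128 against 1.01 for Cox6a1, and Cox8b (2 counts) at 0.00624 against 1.80 for Cox8a. Cox4i2, a form linked to low oxygen, had 1 count, Cox6b2, a testis form, had 2, and Ndufa4l2 had 9. Cox8c was at 0, which allows up to 0.0141 CPM over the 9 libraries together (3 counts, counting error only), and so was Ndufs6b. Cox7b2, at 12.6 to 14.2 CPM as group means, was below Cox7b per kb, at 0.127 against 1.48, and so near the level of Cox6a2 on that scale. Atp5g1, Atp5g2 and Atp5g3, which encode the same mature ring subunit c of complex V, were at 0.681, 1.02 and 2.24 CPM per kb.

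The counting left gaps that say nothing of transcription. Ndufa13 and Cox4i1, both standard subunits of their complexes, had 0 counts because another gene on the same strand, Yjefn3 and Gm20388, covers 100% of each, and read pairs that overlap more than 1 gene were not counted. The same held for Ndufb4c. Among the members, 11 had some overlap on their strand. Ndufb9 (62.9% of its length), Ndufb8 (62.0%), Ndufb2 (37.2%) and the usual Atp5o model (27.3%) were covered most, and their levels are minimum values. The longer Atp5o model was covered by 18.9%, and pairs in the stretch it shares with the usual model were counted for neither.

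All 78 members passed the low-count filter and were tested with 16046 genes in 1 fit of edgeR's quasi-likelihood test. Between Cdk5i and scrambled peptide, the comparison within the transgenic animals, no member passed an adjusted p of 0.05, where 0.0125% of all genes did (2 genes). The members leaned to lower levels with Cdk5i: 62 of 78 had a log2 fold change below 0 (79.5%, against 52.8% of all genes tested), with a median of -0.11 (-0.010 for all genes). Members are mostly short, and among genes under 30 kb 79.5% of members and 62.5% of all genes tested were below 0. Summed over the members, the level was 1008, 1013 and 1026 CPM in the Cdk5i libraries and 1042, 1121 and 1049 CPM in the scrambled ones, so the groups did not overlap in the sum. Without scrambled replicate 2 the median was -0.053 with 53 of 78 below 0. With all libraries but without the longer Atp5o model, 61 of 77 were below 0 with a median of -0.11. In bulk nuclei, fewer cells of a type and less RNA per cell cannot be told apart.

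An unadjusted p under 0.05 by edgeR was reached by 7 members, all lower with Cdk5i, and by 5.33% of all genes, 2.46% lower and 2.87% higher. Among them were Cox5b, Ndufa11, Sdha, Cyc1, Ndufa7 and Atp5k. Groups that did not overlap, with every Cdk5i library below every scrambled one, were found for 11 members, against 5.38% of all genes, and the reverse for 2 members, Cox7a2l and Atp5f1, against 4.95%. The 95% interval of a member's log2 fold change reached 0.28 to either side at the median, 0.13 for Sdha and 0.64 for Ndufa1. DESeq2 called 1 member, Cox5b, among 27 of 16046 genes called. With limma-voom no member was called, among 2 genes.

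Of the 35 complex I genes, 29 had a log2 fold change below 0 between the peptides, with a median of -0.10 and a range of -0.51 to 0.15. The median was -0.050 without scrambled replicate 2 and -0.034 without Cdk5i replicate 2. Core subunits, most of which carry the flavin or iron-sulfur clusters, had log2 fold changes of -0.15 (Ndufs8), -0.11 (Ndufv1), -0.086 (Ndufv2), -0.032 (Ndufs1), -0.021 (Ndufs3) and -0.0093 (Ndufs7). Without scrambled replicate 2 those of Ndufs8, Ndufv1, Ndufs1 and Ndufs7 became -0.026, -0.059, -0.020 and 0.074. The 28 accessory subunits, which surround the core, included 22 below 0 with the same median of -0.10, the lowest being Ndufa2 at -0.51 (-0.28 without scrambled replicate 2). Among them Ndufs5, with a log2 fold change of -0.35, also had groups that did not overlap.

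Ndufa11, an accessory subunit of the membrane arm, was at 4.29, 4.53 and 4.05 CPM under Cdk5i, at 5.90, 6.76 and 4.80 CPM under scrambled peptide and at 5.22, 5.15 and 4.95 CPM in wild type. All Cdk5i libraries lay below all 6 others. The log2 fold change was -0.44 against scrambled peptide (SE 0.15, 95% interval -0.75 to -0.12, edgeR adjusted p = 0.81) and -0.25 against wild type (edgeR adjusted p = 0.573).

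Ndufa7, an accessory subunit of the peripheral arm, was at 6.07, 6.21 and 7.49 CPM under Cdk5i and at 7.67, 7.68 and 9.20 CPM under scrambled peptide. These groups did not overlap, although the highest Cdk5i and the lowest scrambled library were close. The log2 fold change was -0.31 (95% interval -0.59 to -0.030, edgeR adjusted p = 0.922). Ndufs4, the gene with the highest CPM of the chain and one whose loss in mice causes a fatal encephalopathy, had group means of 91.7, 93.2 and 90.9 CPM in wild type, scrambled peptide and Cdk5i, a log2 fold change of -0.036 between the peptides.

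In complex II, the log2 fold change between the peptides was -0.16 for Sdhd, -0.13 for Sdha, -0.042 for Sdhb and 0.012 for Sdhc. Without scrambled replicate 2, Sdhb was at 0.015 and Sdhc at 0.081. The median of the 4 genes, -0.088, was -0.049 without that library and -0.052 without Cdk5i replicate 1. Sdha was measured with the smallest error of all members. It stood at 56.2, 63.1 and 59.9 CPM under Cdk5i, at 65.2, 67.0 and 64.7 CPM under scrambled peptide and at 67.4, 63.8 and 64.3 CPM in wild type. Each Cdk5i library was below all 6 others, by a log2 fold change of -0.13 against scrambled peptide (SE 0.061, 95% interval -0.27 to -0.0038, edgeR adjusted p = 0.922).

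In complex III, 7 of 9 genes had a log2 fold change below 0, with a median of -0.11 and a range of -0.41 to 0.054. The median was -0.056 without scrambled replicate 2, -0.061 without Cdk5i replicate 1 and -0.17 without scrambled replicate 1. Cyc1, cytochrome c1, which hands electrons to cytochrome c, was at 5.71, 6.67 and 6.19 CPM under Cdk5i, at 7.63, 9.13 and 6.31 CPM under scrambled peptide and at 6.21, 6.32 and 6.04 CPM in wild type. Cdk5i and wild-type libraries lay in the same range, and scrambled replicate 3 lay there too. The log2 fold change between the peptides was -0.31 (95% interval -0.61 to -0.0064, edgeR adjusted p = 0.922), and it was -0.16 without scrambled replicate 2. Uqcrfs1, the Rieske iron-sulfur protein, had a log2 fold change of 0.031 (0.070 without that library). The lowest value, -0.41, was that of the small subunit Uqcrq, which was at -0.085 without that library.

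Complex IV had a median of -0.15 between the peptides (-0.11 without scrambled replicate 2), with 9 of 12 genes below 0 and a range of -0.76 to 0.16. This was the lowest median of the 5 complexes, but without scrambled replicate 1 that of complex III was lower, at -0.17. Cox5b, a zinc-binding accessory subunit that is encoded in the nucleus and packs against the mitochondrially encoded core, was at 2.90, 3.01 and 3.44 CPM under Cdk5i. Scrambled libraries were at 5.17, 5.79 and 4.96 CPM and wild-type libraries at 4.46, 4.45 and 4.49 CPM. The 3 groups did not overlap, with Cdk5i lowest and scrambled peptide highest.

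For Cox5b the log2 fold change between the peptides was -0.76 (SE 0.14, 95% interval -1.07 to -0.46, edgeR adjusted p = 0.131), a level 0.589 times that with scrambled peptide. It ranged from -0.83 to -0.66 over 21 alternative settings, and without scrambled replicate 2 it was -0.69. The adjusted p ranged from 0.0126 to 0.745 over them. DESeq2 (adjusted p = 0.0293) and edgeR without a low-count filter (adjusted p = 0.0126) passed the threshold, and the other 19 did not. Over all genes, these settings called 27 of 16046 and 159 of 32394, against 2 of 16046 in the main fit. Against wild type the log2 fold change was -0.52 (SE 0.14, 95% interval -0.83 to -0.21, edgeR adjusted p = 0.239).

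Cox5a, which sits beside Cox5b in the same complex, was at 9.02, 8.15 and 9.32 CPM under Cdk5i, 7.48, 8.56 and 8.13 CPM under scrambled peptide and 7.78, 7.68 and 8.35 CPM in wild type. Its groups overlapped, with a log2 fold change between the peptides of 0.13 (95% interval -0.10 to 0.37, edgeR adjusted p = 0.966). The other small subunits with Cdk5i libraries below all scrambled ones had log2 fold changes of -0.33 (Cox8a), -0.32 (Cox7c), -0.21 (Ndufa4) and -0.11 (Cox6c). Cox7a2l, a factor that joins complexes III and IV into supercomplexes, had a log2 fold change of 0.16 with all Cdk5i libraries above all scrambled ones.

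In complex V, 14 of 18 genes had a log2 fold change below 0, with a median of -0.10 and a range of -0.57 to 0.12. The symbols took in Atp5s, a coupling factor that is no standing part of the enzyme, at -0.087 (-0.14 without scrambled replicate 2). The catalytic pair Atp5b and Atp5a1 had log2 fold changes of -0.12 and -0.14, which became 0.010 and -0.039 without scrambled replicate 2. Atp5k, subunit e of the membrane sector and the shortest gene of the set at 1205 bases, was at 2.01, 1.98 and 1.95 CPM under Cdk5i and at 2.89, 3.99 and 1.94 CPM under scrambled peptide. One scrambled library lay at the Cdk5i level, so the groups overlapped. Its log2 fold change of -0.57 (95% interval -1.08 to -0.053, edgeR adjusted p = 0.922) became -0.28 without scrambled replicate 2. Over the complex, the median was -0.012 without that library and -0.053 without Cdk5i replicate 3. Atp5l, subunit g of the same sector, had a log2 fold change of -0.16 with all Cdk5i libraries below all scrambled ones.

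**Figure D3:**
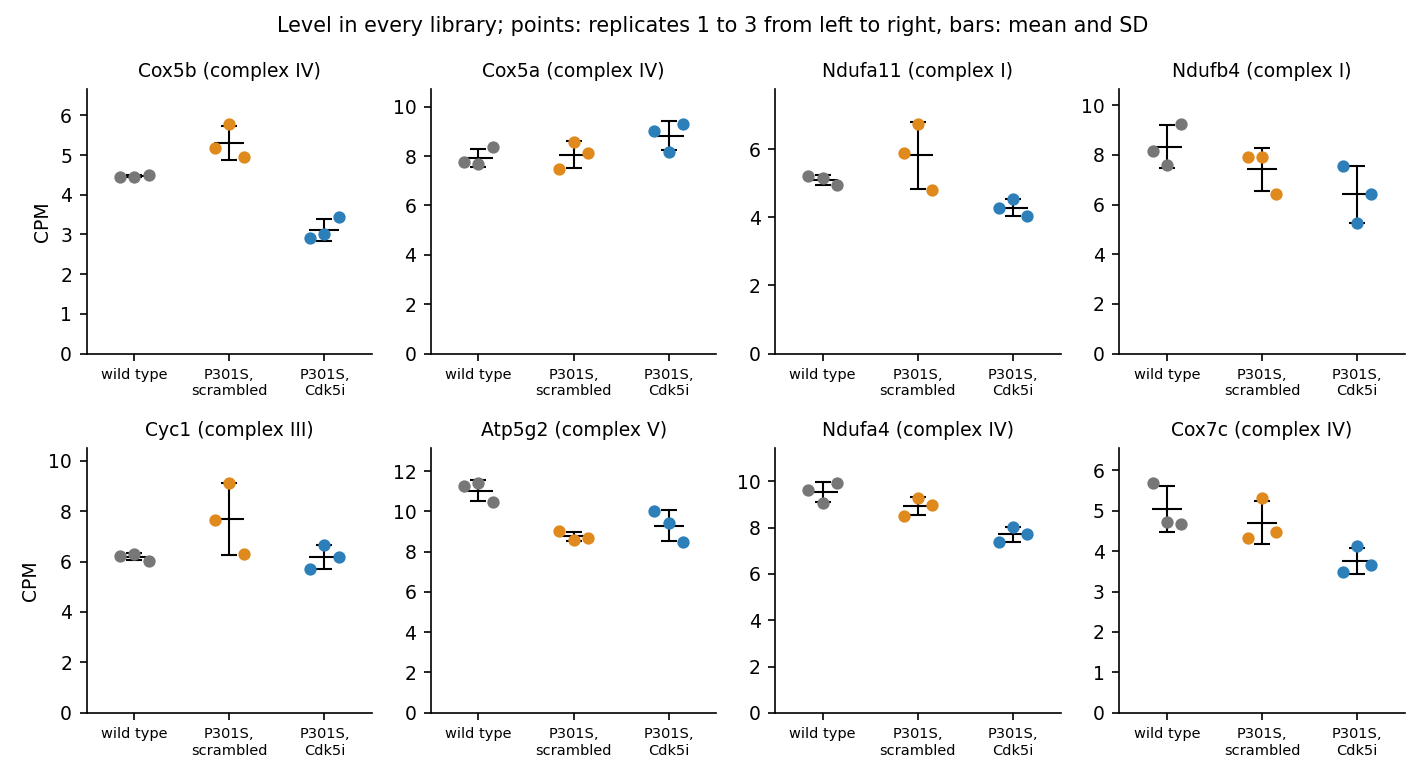
CPM (y axes, from 0) of 8 subunit genes in every library, by group on the x axis; points are replicates 1 to 3 from left to right, and bars give the mean and SD (n = 3). Cox5b is lower in the 3 Cdk5i libraries (2.90 to 3.44 CPM) than in all 6 others, while Cox5a overlaps between groups.

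Between scrambled peptide and wild type, the comparison of transgenic with wild-type neurons, no member passed an adjusted p of 0.05 by edgeR, where 0.081% of all genes did (13 genes), and none passed with DESeq2 or limma-voom. An unadjusted p under 0.05 was reached by 5 members, 1 lower and 4 higher, and by 10.1% of all genes, 5.2% lower and 4.86% higher. The median log2 fold change was 0.040 (0.0084 for all genes), and 53 of 78 were above 0 (67.9%, against 51.7% of all genes) and 25 below 0 (against 48.2%). Among genes under 30 kb, 32.9% of members and 43.3% of all genes were below 0. Without scrambled replicate 2 the median was -0.010 and 41 of 78 were below 0. Summed levels were 1061, 1030 and 1068 CPM in wild type, which overlapped the scrambled libraries.

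By complex, the medians were 0.075 for I (29 of 35 above 0), 0.048 for II (4 of 4), 0.13 for III (5 of 9), -0.040 for IV (5 of 12) and 0.015 for V (10 of 18). Without scrambled replicate 2 they were 0.026, 0.0070, -0.044, -0.080 and -0.038. Over 9 fits that each omit 1 library they ran from 0.026 to 0.092 for I, 0.0070 to 0.063 for II, -0.044 to 0.17 for III, -0.093 to -0.0040 for IV and -0.038 to 0.068 for V. Groups that did not overlap were seen for 10 members with scrambled peptide higher, 6 of them in complex I, against 8.26% of all genes, and for 2 with scrambled peptide lower, Atp5g2 and Atp5f1, against 8.03%.

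Atp5g2, one of the 3 genes for the ring subunit c, was at 11.2, 11.4 and 10.4 CPM in wild type and at 9.02, 8.56 and 8.69 CPM under scrambled peptide. Every scrambled library was below every wild-type one, with a log2 fold change of -0.33 (SE 0.10, 95% interval -0.55 to -0.11, edgeR adjusted p = 0.321). Its sister genes Atp5g1 and Atp5g3 had log2 fold changes of 0.34 and 0.035 (0.18 and -0.021 without scrambled replicate 2). With Cdk5i, Atp5g2 was at 10, 9.41 and 8.48 CPM, below wild type in each library (log2 fold change -0.25, edgeR adjusted p = 0.399), and overlapped the scrambled group.

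Ndufa2, an accessory complex I subunit, was at 1.94, 1.36 and 2.00 CPM in wild type and at 2.12, 3.77 and 2.82 CPM under scrambled peptide. The groups did not overlap, but the lowest scrambled library was near the highest wild-type one. The log2 fold change was 0.71 (SE 0.26, 95% interval 0.16 to 1.26, edgeR adjusted p = 0.385), the highest of all members in this comparison. Atp5d, the delta subunit of the central stalk, with a log2 fold change of 0.27 (0.16 without wild-type replicate 2), also had groups that did not overlap. Cyc1 had a log2 fold change of 0.31 with overlapping groups, and of 0.17 without scrambled replicate 2.

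Between Cdk5i and wild type, no member passed an adjusted p of 0.05 by edgeR, where 0.0748% of all genes did (12 genes), nor did any pass with DESeq2 or limma-voom. This comparison shares the Cdk5i libraries with the first and the wild-type libraries with the second, so its values are no separate evidence. An unadjusted p under 0.05 was reached by 6 members, all lower with Cdk5i, and by 11% of all genes, 5.3% lower and 5.73% higher. The median was -0.038 (-0.0051 for all genes), or -0.091 without wild-type replicate 2, -0.021 without wild-type replicate 3 and -0.064 without Cdk5i replicate 2, and 47 of 78 were below 0 (60.3%, against 51.2%). Among genes under 30 kb, 60.3% of members and 53.4% of all genes were below 0. Every Cdk5i library was below every wild-type one for 12 members, against 8.22% of all genes, and above for 3 (Ndufb9, Ndufv3 and Atp5j2), against 8.03%.

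Here complex IV had a median log2 fold change of -0.17 with 9 of 12 below 0, against -0.018 for complex I (19 of 35), -0.051 for II (2 of 4), -0.016 for III (5 of 9) and -0.10 for V (12 of 18). Over the fits that omit 1 library these ran from -0.28 to -0.13 for IV, -0.043 to -0.0030 for I, -0.078 to -0.015 for II, -0.071 to 0.025 for III and -0.10 to -0.069 for V. Summed over complex IV, the level was 94.3, 92.6 and 95.9 CPM under Cdk5i, 98.0, 105 and 97.7 CPM under scrambled peptide and 102.7, 98.4 and 102.5 CPM in wild type. All Cdk5i libraries were below all 6 others, while the summed levels of scrambled peptide and wild type overlapped. The sum over all 78 members, complex IV included, separated in the same way. It was 1008 to 1026 CPM under Cdk5i, with lowest values of 1042 CPM under scrambled peptide and 1030 CPM in wild type. Other complexes separated in part. The highest Cdk5i sum was below the lowest scrambled sum in complexes I (483.6 against 485.5 CPM), II (99.6 against 100.6 CPM) and III (93.76 against 94.16 CPM). In complex V it was below the lowest wild-type sum (263.7 against 267.1 CPM). Whether complex IV differed from the other complexes was not tested. Over 22 alternative settings its median ranged from -0.28, without wild-type replicate 2, to -0.13.

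Besides Cox5b, complex IV held 2 of the 6 members with an unadjusted p under 0.05 by edgeR. Ndufa4 was at 7.37, 8.04 and 7.71 CPM under Cdk5i, 8.52, 9.31 and 8.96 CPM under scrambled peptide and 9.63, 9.08 and 9.94 CPM in wild type. All Cdk5i libraries were below all 6 others, and the log2 fold change against wild type was -0.31 (SE 0.10, 95% interval -0.53 to -0.087, edgeR adjusted p = 0.315).

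Cox7c, a small membrane subunit, was at 3.48, 4.11 and 3.67 CPM under Cdk5i, 4.32, 5.31 and 4.48 CPM under scrambled peptide and 5.69, 4.73 and 4.68 CPM in wild type. Again the Cdk5i group lay below the other two, which overlapped, with a log2 fold change of -0.42 against wild type (SE 0.15, 95% interval -0.75 to -0.092, edgeR adjusted p = 0.347). In complex I, Ndufb4, a membrane-arm subunit, was at 7.54, 5.26 and 6.42 CPM under Cdk5i and 8.16, 7.58 and 9.26 CPM in wild type. The groups barely separated, at a log2 fold change of -0.38 (95% interval -0.71 to -0.060, edgeR adjusted p = 0.384). Atp5a1, at 30.2, 34.5 and 33.8 CPM under Cdk5i and 38.5, 36.3 and 39.4 CPM in wild type, was the remaining gene of the 6 with Atp5g2, at a log2 fold change of -0.21 (95% interval -0.40 to -0.023, edgeR adjusted p = 0.399).

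**Figure D4:**
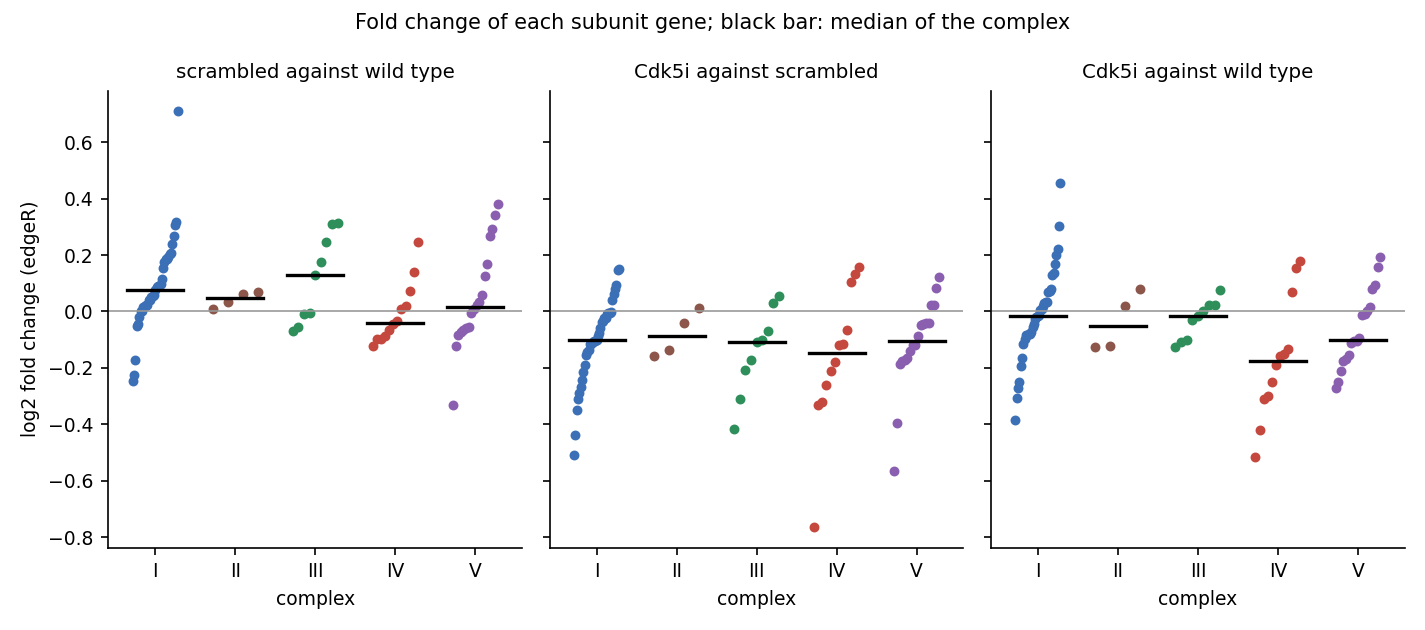
Log2 fold change (y axis, edgeR) of each subunit gene by complex (x axis), in 1 panel for each of the 3 comparisons; black bars are the medians of the complexes. Between the peptides all 5 medians lie below 0, from -0.15 for complex IV to -0.088 for complex II, and the lowest point is Cox5b at -0.76.

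Gene length moved with the fold change between the peptides. Members are short genes, with a median of 7717 bases against 26034 for all genes tested, and 73 of 78 (93.6%) were under 30 kb, against 54.4%. Over all genes tested the median log2 fold change was -0.11 under 5 kb, -0.060 from 5 to 10 kb, -0.031 from 10 to 30 kb and 0.058 over 100 kb. Members of the same lengths had medians of -0.17 (21 of 24 below 0), -0.11 (21 of 27) and -0.057 (16 of 22), lower than the median of all genes in each of these 3 classes. Shares below 0 in these classes were 87.5, 77.8 and 72.7% for members, against 66.3, 64.3 and 60.2% for all genes tested. With a gene length correction in the fit, the members' median became -0.054 with 53 of 78 below 0 in place of 62, and that for scrambled peptide against wild type became 0.019 with 42 of 78 above 0 in place of 53. With the correction and without scrambled replicate 2 together, a setting chosen after seeing the data, the median between the peptides was -0.036 with 49 of 78 below 0, and complex V was at 0.0040. Cox5b, at 2233 bases, had a log2 fold change of -0.66 under the correction alone.

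**Figure D5:**
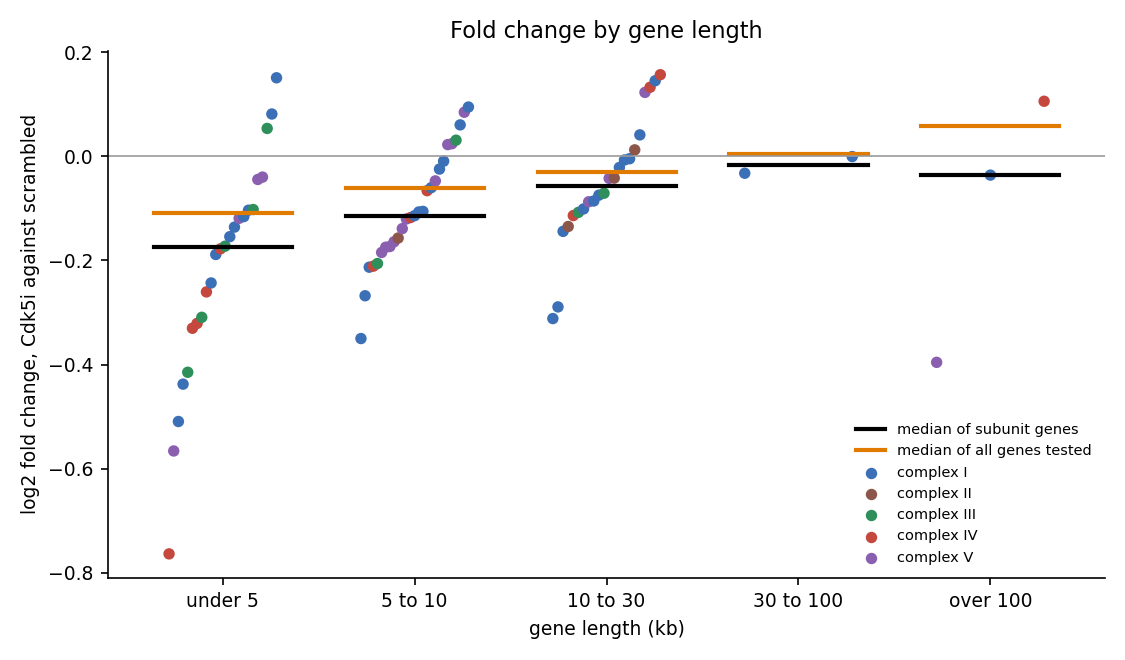
Log2 fold change between Cdk5i and scrambled peptide (y axis) by class of gene length in kb (x axis); points are the 78 subunit genes coloured by complex, black bars their medians and orange bars the medians of all genes tested. Both medians are lowest under 5 kb, at -0.17 and -0.11, and the 2 classes over 30 kb hold only 5 subunit genes.

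Genes that work with the chain were followed in the same fit. Mitochondrially encoded subunits, the core of complexes I, III, IV and V, had 7 of 13 genes tested, and all 7 were below 0 between the peptides with a median of -0.21 and 0 past an adjusted p of 0.05 by edgeR. Scrambled replicate 2, which had the highest summed level of these subunits, is included here and in the lists below. mt-Nd1, a membrane subunit of complex I, was at 9.06, 9.87 and 9.17 CPM under Cdk5i and 13.1, 13.96 and 10.03 CPM under scrambled peptide, so the groups did not overlap (log2 fold change -0.40, edgeR adjusted p = 0.768). These transcripts are made in mitochondria and not in nuclei. mt-Co2, mt-Co3, mt-Atp6, mt-Atp8 and mt-Nd4l were listed at 0 in every library. Neighbours on their strand cover only 0 to 21.1% of their lengths, and why they had no counts was not tested. They add nothing to the mitochondrial share and summed level given for each library.

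Assembly factors, which build the complexes without staying in them, showed 24 of 44 tested below 0 between the peptides, with a median of -0.0090, and none past an adjusted p of 0.05 by edgeR. Coa3, needed for the making of the complex IV core, was lowest at -0.71 (edgeR adjusted p = 0.819), with 0.982, 1.14 and 1.30 CPM under Cdk5i, 2.04, 2.19 and 1.39 CPM under scrambled peptide and 1.09, 1.17 and 1.36 CPM in wild type. Cdk5i and wild-type libraries of Coa3 overlapped and the scrambled ones were the high group.

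Citric acid cycle enzymes had log2 fold changes below 0 in 16 of 18, with a median of -0.050 and a lowest value of -0.26, and 0 past the threshold. Of the mobile carriers, cytochrome c (Cycs) had a log2 fold change of -0.15, against -0.48 for the adenine nucleotide carrier gene Slc25a5 (edgeR adjusted p = 0.922), and all 4 tested were below 0. Slc25a5 was at 5.44 CPM in scrambled replicate 2 and at 3.24 and 3.17 CPM in the other scrambled libraries. Under Cdk5i it was at 2.63, 2.44 and 3.36 CPM. Among regulators of respiratory genes 7 of 14 were below 0 with a median of 0. Ppargc1a, a coactivator that drives mitochondrial biogenesis, was at 91.3, 87.2 and 74.9 CPM under Cdk5i, 77.0, 70.6 and 77.3 CPM under scrambled peptide and 84.2, 88.3 and 86.1 CPM in wild type, with a log2 fold change between the peptides of 0.17 (edgeR adjusted p = 0.922). Esrrg, its partner receptor, was at 378, 330 and 326 CPM under Cdk5i, above all scrambled libraries at 292, 293 and 298 CPM (log2 fold change 0.23, edgeR adjusted p = 0.868). Between the peptides, log2 fold changes were -0.062 for Nrf1, -0.012 for Gabpa, -0.098 for Gabpb1, -0.026 for Yy1 and 0.14 for Ppargc1b. For Cdk5i against wild type they were 0.33 for Ppargc1b, -0.16 for Nrf1 and -0.23 for Gabpb1 (edgeR adjusted p = 0.121, 0.380 and 0.306). In these lists too, no gene passed an adjusted p of 0.05 by edgeR in any of the 3 comparisons.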

How the data were processed

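RNA of sorted NeuN+ nuclei from mouse cortex was sequenced as 40-base read pairs, per the labels. The deposited values are raw counts of read pairs per gene, made with featureCounts 2.0.0 over whole genes (exons and introns) of Ensembl release 102, with the reverse strand setting, per the file headers. Pairs that overlap several genes on a strand or map to several places were left out, per the options in the file headers, which lowers the counts of nested genes and of genes with close copies. The submitters' processing notes name STAR 2.7.9a, Subread 2.0.0, DESeq2 1.36.0 and GRCm38.

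Groups came from the sample titles. Geneids were matched to symbols for 55141 of 55401 genes (99.5%). edgeR 4.0.16 in R 4.3.3 was run with filterByExpr (minimum count 10), TMM factors and 1 robust quasi-likelihood fit with 3 group means to 9 libraries (6 residual degrees of freedom), with Benjamini-Hochberg adjustment over 16046 genes at 0.05 and 95% intervals. CPM values use TMM-scaled library sizes, and CPM per kb divides them by gene length. Standard errors, intervals and p-values come from this fit, and floors cover counting error only, since PCR copies are not independent molecules. No library was a copy of another in its group (chi-square per gene, 8.82 to 26.0, was above the sampling level).

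The members and all gene lists were chosen with earlier results of these data known, so no test was made on a list as a whole. Genes described singly are, per comparison, the 5 members with the lowest unadjusted p; per complex, the 2 highest and the lowest per kb; catalytic subunits, Ndufs4, isoform families, and Cox5b with Cox5a. Genes of the pathway lists, Uqcrq, Cox6c, Atp5l, Atp5s, Ndufs5, Atp5c1, Atp5f1, Atp5j2, Ndufb9, Ndufv3 and Sdhd were named after their values were seen. Promoters came from RefSeq (GRCm38.p6), and 13 members had none matched. The values of some genes chosen by these rules are not reported here. Alternatives were DESeq2 1.42.0, limma-voom (limma 3.58.1), DESeq2 size factors, other filters, library sizes without mitochondrial and ribosomal RNA, a gene length correction, the replicate block, non-robust dispersion, only the groups compared and leaving out each library. Counts of the 9 libraries were also simulated, with genes altered between Cdk5i and scrambled peptide (15763 genes tested). The share of altered genes called was 30% for a log2 change of 0.5, 74% for 1 and 88% for both 1.5 and 2. These genes were drawn at random from all filtered genes and many were altered at once, so the shares do not apply to a single member.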

Additional observations from a re-analysis of the deposited data

How the results depend on the processing

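No member passed an adjusted p of 0.05 in any setting, except Cox5b between the peptides, where DESeq2 and the fit without a low-count filter each called 1 member. The number of all genes called for scrambled peptide against wild type, 13, became 75 with DESeq2, 318 with no low-count filter, 5 with a mean count of at least 50, 6 with non-robust dispersion, 2 with the replicate block, 2 with the block and a gene length correction, 2 with that correction without scrambled replicate 2, and 2 to 17 when each library was left out, lowest without scrambled replicate 2. Between the peptides, 2 became 27 with DESeq2, 159 with no low-count filter and 2 to 18 with a library left out, highest without scrambled replicate 3. For Cdk5i against wild type, 12 became 104 with DESeq2, 408 with no filter, 4 with limma-voom, 1 with a mean count of at least 50, 3 with non-robust dispersion, 2 with only the groups compared, 2 with the block, 2 with the block and the length correction, 2 with the correction without scrambled replicate 2, and 2 to 14 with a library left out, lowest without wild-type replicate 3 or scrambled replicate 2. Causes were not tested.

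The members' median between the peptides kept its sign in 22 of 22 alternatives, from -0.11 to -0.036, the latter with the length correction and without scrambled replicate 2, and from -0.11 to -0.053 with a library left out. For Cdk5i against wild type it ran from -0.091 to -0.021, and for scrambled peptide against wild type from -0.010 to 0.065, with 20 of 22 above 0. Complex III against wild type under Cdk5i was above 0 in 5 alternatives, its range being -0.071 to 0.032. Same-numbered libraries had correlations of -0.31 to 0.17 around their group means, and other pairs from different groups -0.15 to 0.28. No pairing by number was visible, but these values cannot show whether samples were handled together. With the replicate block the members' medians were 0.037, -0.11 and -0.038. Between the peptides, a member's interval reached 0.13 to 0.64 to either side, with a median of 0.28. Such intervals are wider than these median fold changes, which limits what can be said of single genes.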
